A study of Homo sapiens with 12 samples.

Results

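Gene expression was compared between HK-2 cells exposed to CsA for 12 h and HK-2 cells of the 12 h control, with 3 arrays in each group, which are 6 of the 12 arrays of the series. All arrays with these 2 labels entered the comparison. HK-2 is an immortalized human proximal tubule epithelial cell line, and the label CsA is taken to mean cyclosporin A, which blocks calcineurin, prevents transplant rejection and can injure the kidney. The control cells received a vehicle that the labels do not name, and no dose of CsA was stated in them. All groups were grown in the same medium, which contained epidermal growth factor, hydrocortisone, insulin, transferrin and selenite, and were treated shortly before they became confluent. The other 6 arrays hold CsA and control cells at 48 h and are used here only where the effects at both times are set side by side. Each value is the log2 GCRMA signal of a probe set, a group of short probes on an Affymetrix array that reads a gene's transcripts. The labels call the replicates biological but do not say what separates them, so the spread between arrays may be partly technical.

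Of the probe sets, 23158 were above a log2 value of 4 on at least 3 of the 6 arrays, and between 42.1% and 42.4% of all probe sets lay above 4 on each array. For counts of genes, each of 11023 genes was represented by its brightest probe set. The identity of the cells was checked against marker genes. Among 10 markers of kidney tubule epithelium 7 passed this filter, with KRT18 between 15.3 and 15.5 and PAX8 between 11.1 and 11.2 on the 6 arrays, while GGT1 and ANPEP did not pass. None of 7 markers of the mature proximal tubule, among them LRP2, CUBN and AQP1, passed. None of 4 endothelial and none of 4 leukocyte markers passed, although CD68 had no probe set with a single symbol. Of 6 fibroblast markers 4 passed, including LUM and COL1A1, with overlapping ranges in both groups.

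The endoplasmic reticulum (ER) folds secreted and membrane proteins with the help of chaperones such as HSPA5 (BiP). When unfolded protein accumulates, the sensors ERN1, ATF6 and EIF2AK3 (PERK) start the unfolded protein response: XBP1 and ATF6 drive genes for chaperones and for the degradation of misfolded protein, and EIF2AK3 slows translation while favouring the transcription factor ATF4, which drives DDIT3 (CHOP) and genes for amino acid supply. The cyclophilins, to which CsA binds, are folding enzymes, and PPIB is the member that resides in the ER. Sterol synthesis is regulated at the same membrane, where INSIG1 retains the SREBP transcription factors when sterols are plentiful.

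The promoters shown are from genes of the ER chaperone and ATF4 lists that lay higher with CsA in all 3 pairs and hold the letters of a known stress element, so that the values that follow can be read beside the sequence. They come from RefSeq (GRCh38.p14) and show the 250 bases before the annotated gene start, 5′ to 3′ along the gene. Capitals in HSPA5, CRELD2 and HSP90B1 mark the ER stress element, taken as CCAAT, any 9 bases and CCACG, or its reverse complement. Capitals in CHAC1 and HERPUD1 mark the reverse complement of the ATF4 element TGATGNAAN. The intervals are chr9:125241344-125241593 (minus strand) for HSPA5, chr22:49918384-49918633 (plus strand) for CRELD2, chr12:103930160-103930409 (plus strand) for HSP90B1, chr15:40953221-40953470 (plus strand) for CHAC1 and chr16:56931892-56932141 (plus strand) for HERPUD1.
HSPA5: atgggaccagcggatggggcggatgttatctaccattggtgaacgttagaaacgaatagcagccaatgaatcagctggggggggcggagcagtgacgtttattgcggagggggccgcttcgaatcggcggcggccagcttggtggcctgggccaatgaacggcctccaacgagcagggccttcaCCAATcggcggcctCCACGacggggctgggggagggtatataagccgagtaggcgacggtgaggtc
CRELD2: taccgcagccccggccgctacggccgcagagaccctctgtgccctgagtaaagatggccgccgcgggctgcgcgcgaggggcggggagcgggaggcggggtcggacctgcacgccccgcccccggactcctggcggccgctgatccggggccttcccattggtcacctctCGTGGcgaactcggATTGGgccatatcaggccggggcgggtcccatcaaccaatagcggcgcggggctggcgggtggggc
HSP90B1: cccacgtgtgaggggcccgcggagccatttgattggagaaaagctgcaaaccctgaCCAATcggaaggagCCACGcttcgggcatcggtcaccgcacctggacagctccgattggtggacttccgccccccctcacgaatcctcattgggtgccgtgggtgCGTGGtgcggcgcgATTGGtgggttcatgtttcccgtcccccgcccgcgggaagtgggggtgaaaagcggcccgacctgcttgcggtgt
CHAC1: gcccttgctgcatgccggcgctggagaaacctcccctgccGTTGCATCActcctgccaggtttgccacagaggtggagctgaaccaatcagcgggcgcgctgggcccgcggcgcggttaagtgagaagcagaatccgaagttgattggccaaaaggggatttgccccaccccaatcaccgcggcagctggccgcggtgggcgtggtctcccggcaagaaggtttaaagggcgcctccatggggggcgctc
HERPUD1: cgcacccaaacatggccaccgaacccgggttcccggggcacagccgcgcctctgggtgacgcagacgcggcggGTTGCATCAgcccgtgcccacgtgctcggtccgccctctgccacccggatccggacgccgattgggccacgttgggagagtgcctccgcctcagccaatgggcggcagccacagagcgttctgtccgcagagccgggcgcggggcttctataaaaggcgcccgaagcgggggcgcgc

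The ER stress element begins 66 bases before the start of HSPA5 on the strand of the gene. It lies on the opposite strand in CRELD2, from 80 to 62 bases before the start, and HSP90B1 holds 2, one on each strand. Both strands of the 300 bases from 250 before to 50 after each start were searched. Of 23 ER chaperone promoters in the table, 6 (26.1%) held the element, against 22 of all 27305 promoters (0.0806%). The 6 are HSPA5, CRELD2, HSP90B1, CALR, CANX and ERO1B, and their log2 differences between CsA and control ranged from 0.11 for CALR to 0.78 for HSPA5. The element TGACGTGG was found in 3 of the 23 (13%, against 0.795% of all), including HYOU1. The ATF4 element was found in 5 of 21 promoters of the ATF4 and CHOP list (23.8%) and in 6 of 17 of the amino acid list (35.3%), against 3.67% of all promoters. ASNS, ATF3, FGF21, CHAC1 and HERPUD1 are the 5. Of these, FGF21 had no value, and the other log2 differences ranged from 0.24 for ATF3 to 1.31 for CHAC1. Those of the 6 in the amino acid list ranged from -0.08 to 0.32. The promoters of DNAJB9, SDF2L1, MANF and KLF4 held none of these letters in this window. The sterol element TCACNCCAC was found in 1 of 18 promoters of the cholesterol list (5.56%, against 1.15%), whose gene had a log2 difference of -0.0093. These matches describe sequence and are not shown here to be bound sites.

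No probe set passed an adjusted p of 0.05 in the comparison of CsA with control at 12 h (limma, Benjamini-Hochberg over 23158 probe sets; 0 called, 0.00%), and the lowest adjusted p was 0.387. At an unadjusted p under 0.05, 1500 probe sets were found, 837 higher with CsA (3.61%) and 663 lower (2.86%). With the replicate number as a block, 2941 were found, 1623 higher (7.01%) and 1318 lower (5.69%), and again none passed the adjusted threshold, with a lowest adjusted p of 0.196. Of the other planned settings, 1 made a call: a fit over all 12 arrays called 1 probe set of DNAJB9, with a log2 difference of 1.13 and an adjusted p of 0.0364. The same fit with the replicate block within each time made no call, with a lowest adjusted p of 0.55 and 846 probe sets at an unadjusted p under 0.05. A setting added after the data were seen, the replicate block with a trended and robust prior, called HSPA5 (adjusted p = 0.0165, limma), KLF4 (0.0374) and GDF15 (0.0404). Another unplanned setting, 1 probe set per gene with the replicate block, made no call. Its lowest adjusted p was 0.0677, that of KLF4 (limma). An exact permutation test of 3 arrays against 3 could not go below 0.1. The results are therefore given as array values and paired differences, each of them CsA minus control of the same replicate number, beside the same counts over all genes. Standard errors and adjusted p values of single genes at 12 h come from the fit without the block, which ignores the pairing, unless another fit is named.

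The differences were small for most genes. The median difference over the 11023 genes was -0.01 on the log2 scale, and the median absolute difference was 0.08. A 2-fold difference was exceeded upward by 5 genes (CHAC1, SDF2L1, KLF4, KDM7A and NAV3) and downward by 3 (NUPR1, FAM222A and SPACA6), of which NAV3, KDM7A, FAM222A and SPACA6 are named for their size after the values were seen. NAV3 was dim and its groups overlapped, at 4.63, 2.84 and 6.15 with CsA against 4.43, 2.59 and 3.50, and its paired differences were 0.20, 0.25 and 2.65, so that replicate 3 alone carried it past 2-fold. All 3 paired differences reached at least 0.5 upward in 26 genes (0.236%) and downward in 7 (0.0635%). Among the 26 were the ER chaperones SDF2L1, DNAJB9, MANF, HSPA5 and PDIA4, the stress genes CHAC1, GDF15 and DDIT3, and the transcription factor KLF4. Of the genes given in the text other than MCM4 and MCM6, 58 had other probe sets above the filter, 98 in all. Of these probe sets, 13 had the opposite sign to the brightest probe set: 3 of CDH6, 2 each of IDI1 and PAX8, and 1 each of CALR, P4HB, ATF5, SLC7A1, LSS and ACACA.

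Genes of protein folding in the ER mostly lay higher with CsA. Of 24 measured ER chaperones and folding enzymes, 22 had a positive mean difference, 16 lay higher with CsA in all 3 pairs (18.7% of all genes did) and none lay lower in all 3. In 13 of the 24 every CsA array was above every control array, which held for 6.50% of all genes. The median difference was 0.26, with 0.27, 0.26 and 0.33 in replicates 1, 2 and 3. None of the 24 passed the adjusted threshold.

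DNAJB9 (ERdj4), a co-chaperone of HSPA5 that binds misfolded protein and the sensor ERN1, had log2 values of 10.40, 10.17 and 10.48 on the CsA arrays and 9.37, 9.56 and 9.58 on the control arrays. The groups did not overlap, and the paired differences were 1.02, 0.60 and 0.91. The mean difference was 0.84 with a standard error of 0.11 (limma, adjusted p = 0.387), a ratio of 1.8. Other probe sets of DNAJB9 gave differences of 1.13 and 0.65, also positive in every pair.

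HSPA5, the main ER chaperone of the HSP70 family, was bright in both groups. Its CsA arrays stood at 15.24, 14.91 and 15.40 and its control arrays at 14.45, 14.18 and 14.59. Replicate 2 was lowest in both groups, so that the paired differences of 0.79, 0.73 and 0.81 were closer to each other than the levels were. The mean difference was 0.78 (1.71-fold), with a standard error of 0.16 without the block and 0.054 with it, and a dimmer probe set of HSPA5 gave 1.22.

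SDF2L1, an ER protein that acts with HSPA5 and its co-chaperones, was measured at 9.80, 9.39 and 10.65 with CsA against 8.96, 8.33 and 8.67 in the control. Its paired differences of 0.84, 1.06 and 1.99 show that replicate 3 carried the largest share of a mean difference of 1.30 (SE 0.34, 2.46-fold). MANF, a secreted protein that is retained in the ER through HSPA5, had paired differences of 0.65, 0.70 and 1.05 and a mean of 0.80.

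The next members in size were the secreted ER resident protein CRELD2 (0.64), the disulfide isomerase PDIA4 (0.64) and HYOU1 (0.62), a large HSP70-related chaperone of the ER. DNAJB11, another HSPA5 co-chaperone, had a difference of 0.48, HSP90B1 (GRP94) 0.41 and DNAJC3 (p58IPK) 0.41. In all of these the groups did not overlap. The lectin chaperone CALR (0.11) and the disulfide isomerase P4HB (0.08) overlapped between groups, their 3 pairs did not share a sign, and 1 other probe set of each had a negative difference. In 15 of the 24 genes (62.5%) the difference was highest in replicate 3, compared with 35.7% of all genes. Without replicate 3 of both groups the median over the list was 0.25, and without the CsA array of replicate 2 it was 0.40.

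**Figure D1:**
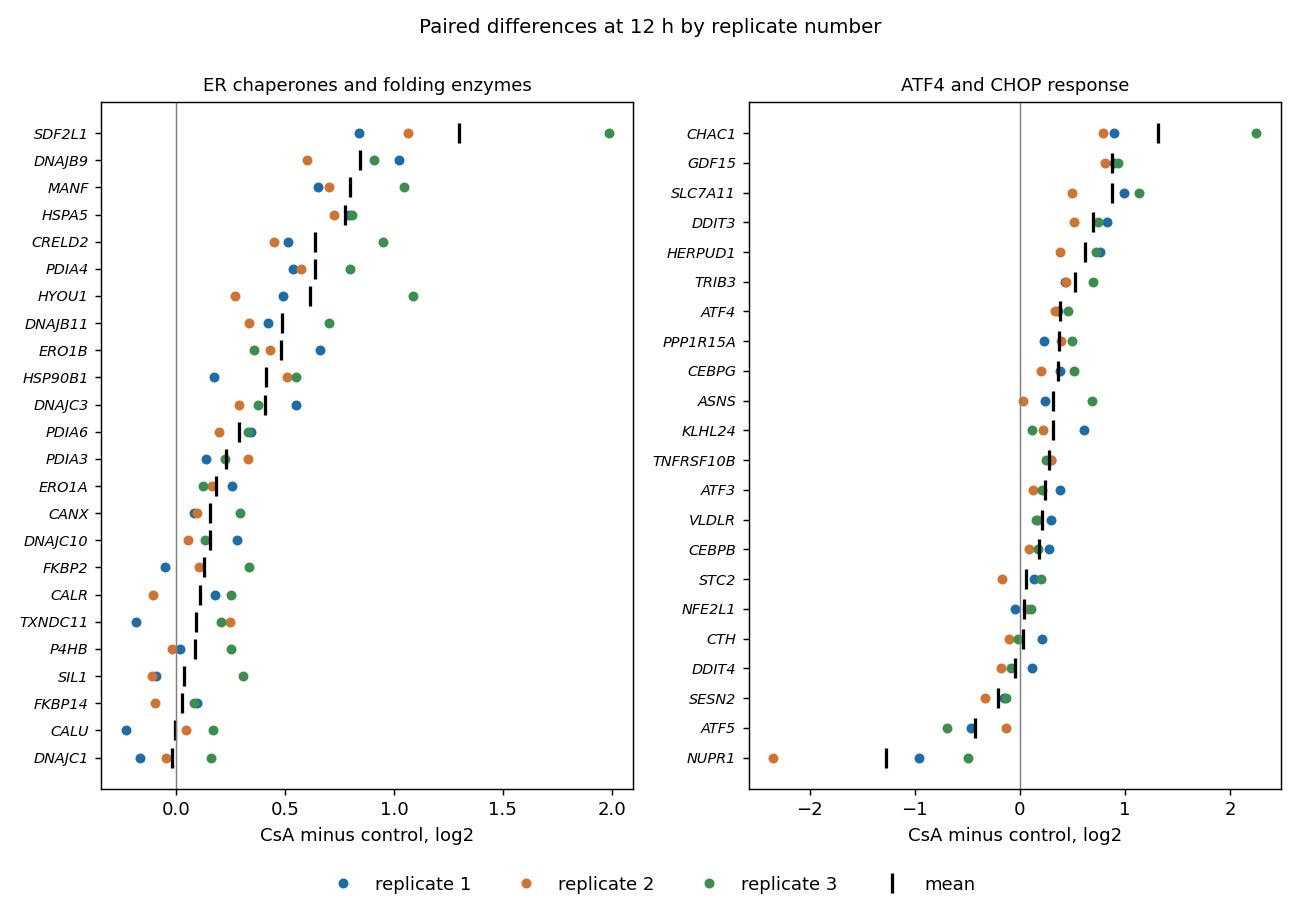
Paired differences at 12 h (CsA minus control of the same replicate number, log2) for the 24 ER chaperones and folding enzymes and the 22 genes of the ATF4 and CHOP response, with coloured points for replicates 1, 2 and 3 and a black bar for their mean. SDF2L1 and CHAC1 head the lists with replicate 3 farthest to the right, and 16 and 15 genes respectively lie above 0 in all 3 pairs.

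Downstream of folding, ER-associated degradation returns misfolded proteins to the cytosol for destruction. Of 20 measured genes of this process, 12 had a positive difference and 7 had groups that did not overlap, all 7 higher with CsA. Over all genes 46.9% had a positive difference and 6.50% had groups separated upward. The median of 0.02 was close to that of all genes, and the larger differences were held by a few members. HERPUD1, a scaffold of the degradation complex that is also in the ATF4 and CHOP list, stood at 11.88, 11.52 and 11.99 with CsA and 11.12, 11.14 and 11.26 in the control, a difference of 0.62 (SE 0.13). EDEM1, which marks glycoproteins for degradation, differed by 0.49, SELENOK by 0.44, SEL1L by 0.30, DERL2 by 0.24 and SELENOS by 0.23. The seventh gene with separated groups was ERLEC1, with 0.10.

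Further along the secretory route the differences were smaller. Among 24 genes for translocation into the ER, glycosylation and COPII transport, the median was 0.06 and the largest difference was 0.17. In 3 of them all CsA arrays were above all control arrays, which held for 6.50% of all genes. Among 10 measured sensors and signal carriers, 9 had a positive difference and the median was 0.06. XBP1, the transcription factor downstream of ERN1, differed by 0.47 with paired differences of 0.58, 0.40 and 0.42, and its groups overlapped. The sensor EIF2AK3 differed by 0.13.

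The ATF4 and CHOP response, the branch that EIF2AK3 feeds, was measured with 22 genes. Of these, 18 had a positive difference, and 15 lay higher and 3 lower in all 3 pairs, against 18.7% and 21.3% of all genes. The groups did not overlap in 10 higher and 2 lower genes, against 6.50% and 6.60% of all genes. The median difference was 0.30, with 0.30, 0.19 and 0.23 in replicates 1, 2 and 3. None passed the adjusted threshold.

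CHAC1, an enzyme that degrades glutathione, had the largest difference of the list. Its CsA arrays stood at 6.13, 5.84 and 7.07 and its control arrays at 5.23, 5.05 and 4.82, without overlap. The mean difference was 1.31 (SE 0.32, 2.48-fold; limma, adjusted p = 0.604), and the paired difference of 2.25 in replicate 3 was more than those of 0.90 and 0.79 in the other pairs.

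GDF15, a secreted stress cytokine, stood at 11.23, 10.96 and 10.73 with CsA and 10.33, 10.15 and 9.79 in the control. Both groups were ordered alike by replicate number, and the paired differences were 0.90, 0.81 and 0.94. The mean of 0.88 had a standard error of 0.18 without the block.

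SLC7A11, the cystine importer, had CsA values of 8.28, 7.71 and 8.78 against 7.29, 7.21 and 7.64, a mean difference of 0.88 (SE 0.28). A second probe set of SLC7A11 gave 1.13. DDIT3 (CHOP) stood at 9.87, 9.56 and 9.74 against 9.04, 9.04 and 8.99, and its difference of 0.70 (SE 0.09) had an adjusted p of 0.387 (limma), equal to the lowest of the comparison. The pseudokinase TRIB3 differed by 0.52, ATF4 itself by 0.38, its partner CEBPG by 0.37 (0.12 on its other probe set) and the eIF2 phosphatase subunit PPP1R15A by 0.37. The death receptor gene TNFRSF10B differed by 0.28.

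Members with separated groups in the other direction were ATF5, with a difference of -0.43, and NUPR1, with -1.27. Other probe sets of ATF5 gave -0.53, -0.0073 and 0.0051. NUPR1 was dim: its CsA arrays were at 3.94, 2.85 and 3.77, below the log2 value of 4 used as the filter, and its control arrays at 4.90, 5.20 and 4.26.

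Amino acid supply and tRNA charging, which ATF4 serves, were followed in further genes. Of 21 measured genes for amino acid transport and synthesis, 16 had a positive difference, with a median of 0.09. In all 3 pairs 9 lay higher and 2 lower, and 3 had groups separated upward, against 18.7%, 21.3% and 6.50% of all genes. The median was 0.11 in replicate 1, -0.04 in replicate 2 and 0.19 in replicate 3. ASNS (asparagine synthetase) differed by 0.32 with overlapping groups, at 10.66, 9.53 and 10.64 against 10.42, 9.50 and 9.95. Replicate 2 was low for ASNS in both groups. SLC7A1, an importer of cationic amino acids, differed by 0.21, and its other probe sets gave 0.18 and -0.013. Of 17 cytosolic aminoacyl-tRNA synthetases, 8 lay higher in all 3 pairs and 2 lower, against 18.7% and 21.3% of all genes. Their median of 0.10 was 0.051 without the CsA array of replicate 1 and 0.064 without the control array of replicate 2. It was 0.065 without replicate 3 of both groups. The alanyl enzyme AARS1 differed by 0.44, the tyrosyl enzyme YARS1 by 0.32 and the valyl enzyme VARS1 by -0.25.

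**Figure D2:**
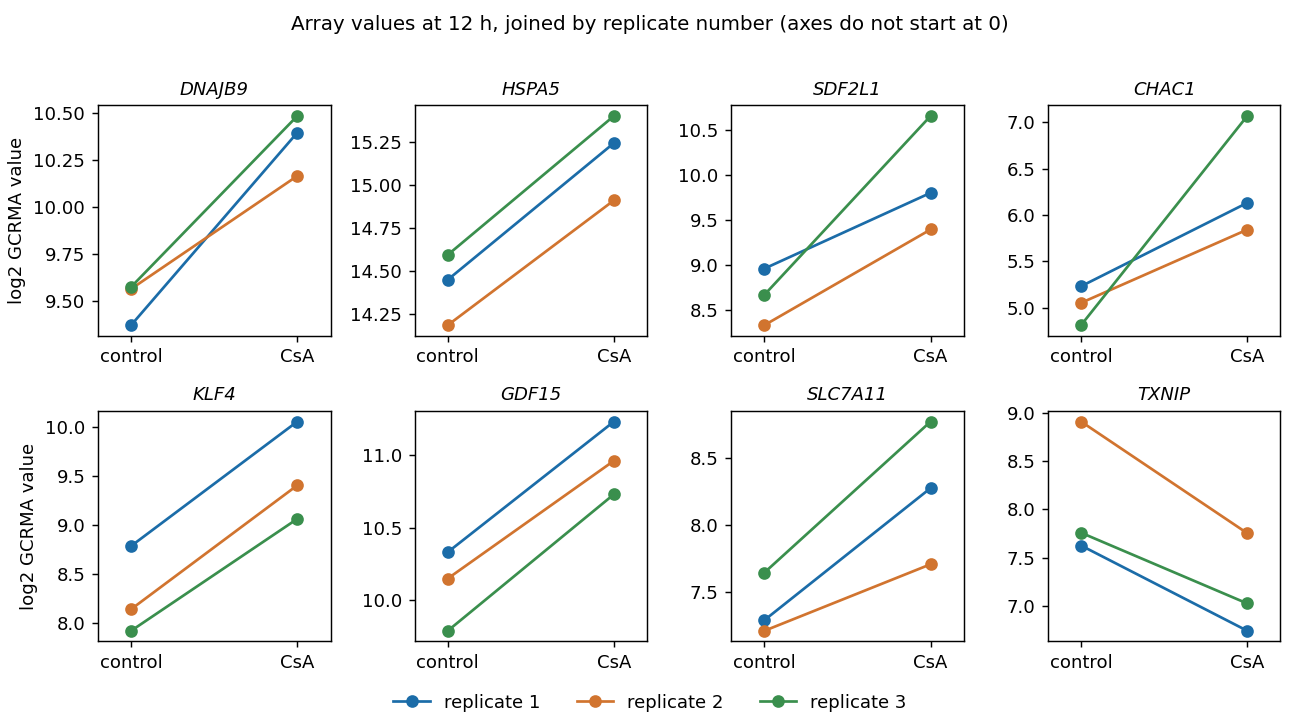
Log2 GCRMA values of 8 genes at 12 h on the 3 control and the 3 CsA arrays, with lines that join arrays of the same replicate number; the vertical axes differ and do not start at 0. Every line climbs from control to CsA in DNAJB9, HSPA5, SDF2L1, CHAC1, KLF4, GDF15 and SLC7A11, and every line descends in TXNIP.

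Sterol and fatty acid genes formed another group with mostly positive differences. Of 19 measured genes of cholesterol synthesis and uptake, 17 had a positive difference, 14 lay higher in all 3 pairs and 11 had CsA arrays above all control arrays. Over all genes 18.7% lay higher in all 3 pairs and 6.50% had groups separated upward. The median was 0.19, with 0.19, 0.24 and 0.21 in the 3 replicates, so that the pairs were close to each other. Under the alternative settings this median ranged from 0.14 to 0.27. None passed the adjusted threshold.

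MVD, an enzyme of the mevalonate pathway, stood at 7.95, 7.89 and 8.33 with CsA and 7.42, 7.21 and 7.72 in the control, a difference of 0.61 (SE 0.17). STARD4, a cytosolic carrier of cholesterol, differed by 0.53. LSS, which closes the sterol ring, stood at 11.84, 11.96 and 12.00 against 11.42, 11.53 and 11.63, a difference of 0.41 (SE 0.08). Other probe sets of LSS gave 0.40 and, near the filter, -0.37. INSIG1, the sterol-responsive brake on SREBP, differed by 0.38, HSD17B7 by 0.31, FDPS by 0.28, HMGCS1 by 0.26, SC5D by 0.25 and IDI1 by 0.22, all with separated groups. Another 2, dimmer probe sets of IDI1 gave -0.28 and -0.15. PMVK lay the other way, with -0.23 and every CsA array below every control array. NPC1, which exports cholesterol from lysosomes, differed by 0.38.

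Among 14 measured genes of fatty acid synthesis and desaturation, 11 had a positive difference, and the median was 0.22. In all 3 pairs 9 lay higher (18.7% of all genes did), and 6 had groups separated upward (6.50% of all genes). ACSS2, which makes acetyl-CoA from acetate, stood at 11.24, 11.40 and 11.47 with CsA against 10.61, 10.68 and 10.82. Its difference of 0.67 (SE 0.09) was even across pairs, at 0.63, 0.73 and 0.64 (limma, adjusted p = 0.387). PNPLA3 differed by 0.40 and ACACA, the rate-limiting enzyme of fatty acid synthesis, by 0.29. Another, dimmer probe set of ACACA lay in the opposite direction, with -0.21 and every CsA array below every control array. LPIN1, chosen after its values were seen, differed by 0.47.

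**Figure D3:**
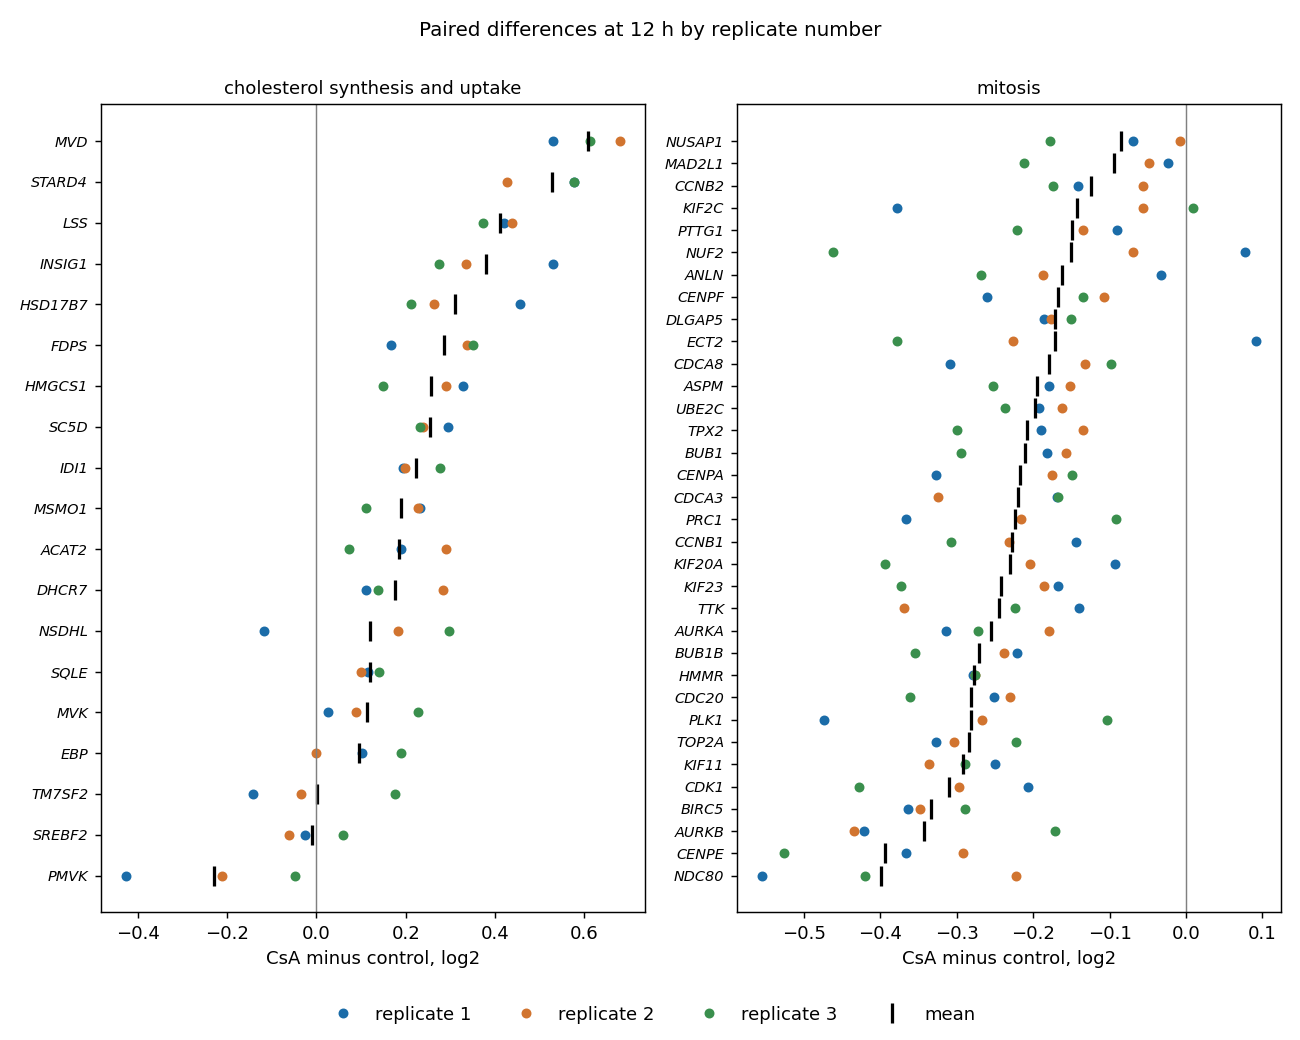
Paired differences at 12 h (CsA minus control of the same replicate number, log2) for 19 genes of cholesterol synthesis and uptake and 34 genes of mitosis, with coloured points for the replicates and a black bar for their mean. In the cholesterol list 17 means lie above 0, and in the mitosis list all 34 lie below 0.

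KLF4, a zinc finger transcription factor with roles in differentiation and growth arrest of epithelia, had CsA values of 10.06, 9.41 and 9.06 and control values of 8.78, 8.14 and 7.92. Both groups were ordered alike by replicate number, as in GDF15, and the paired differences were 1.27, 1.27 and 1.14. The mean difference was 1.23 (2.34-fold), with a standard error of 0.32 without the block (limma, adjusted p = 0.626) and an adjusted p of 0.196 with it. Another, dimmer probe set of KLF4 gave 1.40. Of 13 measured Kruppel-like factors, 12 had a positive difference, with a median of 0.23 that was 0.36 without the control array of replicate 1. Of these 13, 8 lay higher in all 3 pairs and 5 had groups separated upward, against 18.7% and 6.50% of all genes. The other 4 with separated groups were KLF6 (0.42), KLF2 (0.37), KLF7 (0.35) and KLF11 (0.30), and KLF5 had a difference of -0.13.

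Early response transcription factors and their targets, which growth factors and stress switch on within minutes to hours, had a positive difference in 18 of 19 measured genes. The groups were separated upward in 4 (6.50% of all genes), and 12 lay higher in all 3 pairs (18.7% of all genes). The median of 0.24 was made of 0.22, 0.39 and 0.21 in replicates 1, 2 and 3 and was 0.14 without the control array of replicate 2. In 12 of the 19 (63.2%) the difference was highest in replicate 2, compared with 30.7% of all genes. EGR1 stood at 12.82, 12.64 and 12.79 with CsA and 12.37, 11.25 and 12.50 in the control, so that its paired differences were 0.44, 1.39 and 0.30. FOS had paired differences of 0.22, 1.57 and 0.07 and overlapping groups. In both genes the control array of replicate 2 was the lowest of the 6 arrays. MAFF (0.64), the matricellular genes CCN2 (0.50) and CCN1 (0.42), JUN (0.43) and MYC (0.37) were more even across pairs, although the groups of MAFF, CCN2 and MYC overlapped.

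Of 13 measured NF-kB targets and cytokines, 10 had a positive difference and 4 had separated groups (6.50% of all genes did), with a median of 0.16. This median was 0.026 without the filter on dim probe sets, 0.10 with a filter at log2 6, 0.060 without replicate 2 of both groups and 0.25 without the control array of replicate 1. IL6, near the lower end of measurement at 5.63, 5.36 and 5.57 with CsA against 5.21, 4.83 and 4.89, differed by 0.55 (SE 0.13). CXCL8, a neutrophil chemokine, differed by 0.38.

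Several further genes had differences of like size. TMEM50B, which encodes a membrane protein of the ER and Golgi, stood at 10.39, 10.20 and 10.88 against 9.67, 9.44 and 9.77, a difference of 0.86 (SE 0.19), and its other 3 probe sets gave 0.75 to 0.87. ADM, the vasodilator peptide adrenomedullin, differed by 0.78, ZNF516 by 0.97, CRELD1 by 0.90 and INHBE, an activin subunit, by 0.90. The paired differences of INHBE were uneven, at 1.54, 0.09 and 1.06. Of the 26 genes with at least 0.5 in every pair, the following were chosen after their values were seen: the Wnt inhibitor DKK1 (0.74), the tyrosine phosphatase PTPRR (0.76), the mitochondrial phosphatase PPM1K (0.68), the glycogen-targeting subunit PPP1R3B (0.62), the kinase PIM1 (0.59), the zinc finger gene ZFP28 (0.58, with 0.25 on its other probe set), the folate enzyme ALDH1L2 (0.89), the transporter SLCO4C1 (0.92), the transcription factor MEF2C (0.70) and the histone demethylase KDM7A (1.39, with control arrays near the log2 filter of 4). The groups of PTPRR, ALDH1L2, SLCO4C1 and MEF2C overlapped.

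**Figure D4:**
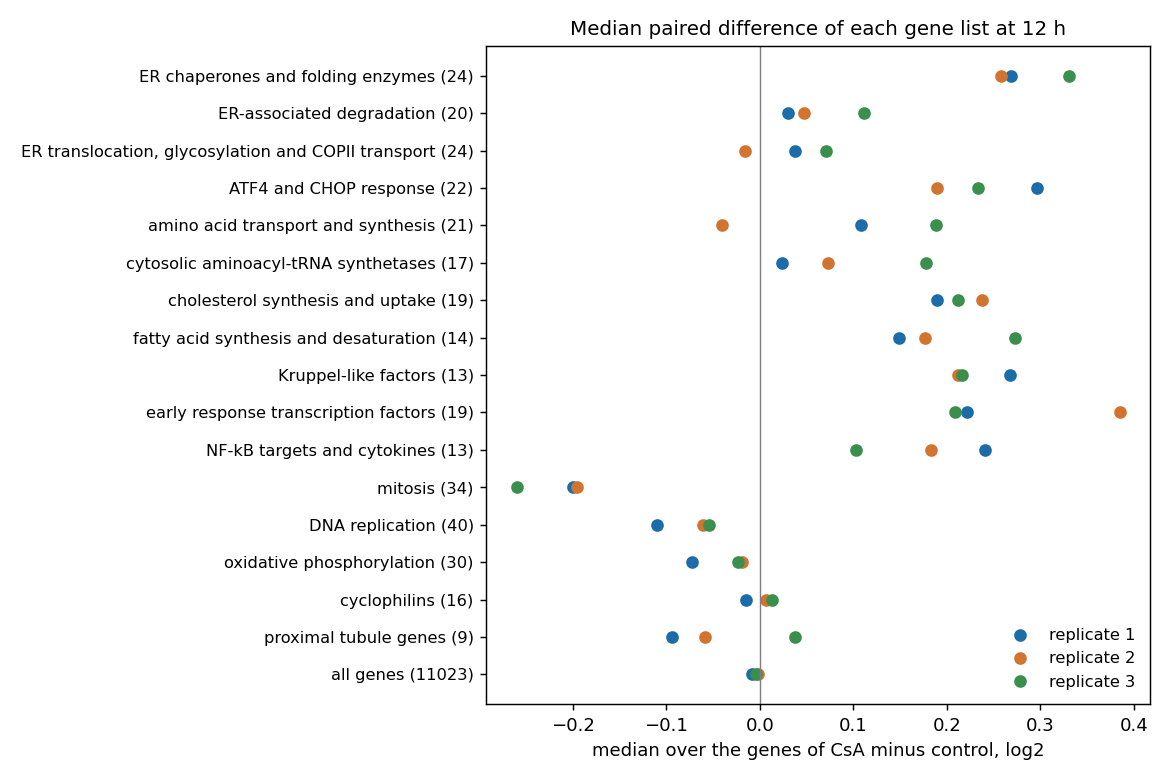
Median of the paired differences (CsA minus control, log2) over the measured genes of 16 lists and over all 11023 genes at 12 h, with a point for each replicate number; the count of measured genes is in parentheses. The medians of the ER chaperone, ATF4 and CHOP, cholesterol, fatty acid, Kruppel-like factor, early response and NF-kB lists lie above 0.1 in every replicate and that of mitosis below -0.1, while those of all genes lie close to 0.

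Genes of mitosis lay in the other direction. All 34 measured genes had a negative difference, 31 lay lower in all 3 pairs (21.3% of all genes did), and in 20 every CsA array was below every control array (6.60% of all genes). The differences were small, with a median of -0.22 and medians of -0.20, -0.20 and -0.26 in the 3 replicates, and none passed the adjusted threshold. CDK1, the kinase that drives entry into mitosis, stood at 12.65, 12.56 and 12.48 with CsA and 12.86, 12.86 and 12.91 in the control, a difference of -0.31 (SE 0.07). The spindle motor KIF11 differed by -0.29 and topoisomerase TOP2A by -0.28. In these bulk samples, fewer cells in mitosis and less of these RNAs per cell cannot be told apart.

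DNA replication genes were less uniform. Of 40 measured, 32 had a negative difference, 17 lay lower in all 3 pairs and 7 had separated groups, against 21.3% and 6.60% of all genes, with a median of -0.08. ORC1, a subunit of the origin recognition complex, differed by -0.32, FEN1, a nuclease of lagging strand synthesis, by -0.24 and the ribonucleotide reductase subunit RRM2 by -0.18. Beside these lists, TP53I3, a p53 target, differed by -0.35 and the CDK inhibitor gene CDKN2B by 0.29. Of 11 measured cyclin D genes and CDK inhibitors, 1 lay higher and 3 lower in all 3 pairs, against 18.7% and 21.3% of all genes. The groups were separated upward in 1 and downward in 2 (6.50% and 6.60% of all genes), and the median was 0.02.

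The next genes are among those with the largest negative differences that also had separated groups, a shared sign in all pairs and a control mean of at least log2 6. RTKN2 stood at 7.47, 7.49 and 7.03 with CsA against 7.86, 7.88 and 8.26, a difference of -0.68 (SE 0.17). The homeobox gene DLX2 differed by -0.57, the heparan sulfate sulfotransferase HS6ST1 by -0.56, the Hedgehog transcription factor GLI1 by -0.56, the helicase PIF1 by -0.56, BEND6 by -0.61, ATAD5 by -0.53 and ZZEF1 by -0.50. The other probe set of DLX2 gave -0.0091 and that of ZZEF1 -0.020, so that these differences rest on 1 probe set each. HS6ST1 was even, at 7.34, 7.28 and 7.30 against 7.70, 7.90 and 7.98.

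TXNIP, an inhibitor of glucose uptake whose expression responds to glucose, stood at 6.74, 7.75 and 7.02 with CsA and 7.62, 8.92 and 7.76 in the control, and its groups overlapped because replicate 2 was high in both. The paired differences were -0.89, -1.16 and -0.74 and the mean -0.93 (SE 0.42 without the block, limma adjusted p = 0.785). With the replicate block the standard error was 0.099 and the adjusted p 0.255 (limma). Other probe sets of TXNIP gave -1.07 and -1.20. Of the remaining 6 genes with at least 0.5 downward in every pair, 5 are given here. PIF1 is given above, and, chosen after their values were seen, S100A5, TMEM45A, SPACA6 and FAM222A had differences of -0.72, -0.78, -1.01 and -1.05 at levels below log2 6 on all 6 arrays.

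The genes of the drug's direct targets had small differences. The cytosolic cyclophilin PPIA, at 15.20, 15.30 and 15.36 with CsA and 15.31, 15.34 and 15.31 in the control, had a difference of -0.03. The ER cyclophilin PPIB was 1 of 16 measured cyclophilins and the only one with separated groups, a share close to the 6.50% of all genes, and stood at 14.12, 14.02 and 14.31 against 13.91, 13.88 and 13.93, a difference of 0.24 (SE 0.09; limma, adjusted p = 0.719), and its other probe set gave 0.25. The calcineurin catalytic subunit PPP3CA differed by -0.07 and RCAN1, a calcineurin-responsive inhibitor, by -0.06. NFAT5, the osmotic stress factor, differed by 0.25. The median over 12 measured calcineurin and NFAT genes was -0.05.

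Markers of tubular injury and of the tubule had mostly small differences. HAVCR1 (KIM-1) stood at 10.54, 10.89 and 10.57 with CsA against 10.59, 10.02 and 10.46, a difference of 0.31 that came mostly from replicate 2 (0.87). HMOX1 differed by -0.02. The median over 11 injury markers was 0.01 and over 9 measured proximal tubule genes -0.06. The probe sets of CDH6, a cadherin of the proximal tubule, disagreed: the brightest gave 0.09, 2 others were positive in every pair (0.19 and 0.15), and the remaining 3 ranged from -0.59 to -0.05. Of 16 EGF receptor ligands and feedback genes 10 lay higher in all 3 pairs (18.7% of all genes did), with a median of 0.12. This median was 0.20 without the CsA array of replicate 3 and 0.19 without the control array of replicate 1. It was 0.071 without replicate 1 of both groups. Of 30 oxidative phosphorylation genes 3 had a positive difference (46.9% of all genes did), with a median of -0.03 and NDUFS3 lowest at -0.21. The medians of 18 NRF2 and glutathione genes (-0.02), 16 heat shock proteins outside the ER (-0.05), 25 glycolysis and hypoxia genes (-0.02), 14 BCL2 family genes (0.04; BAK1 -0.28) and 23 p53 targets (-0.02; PMAIP1 0.24) were close to 0.

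The same contrast at 48 h was set beside these values by testing the CsA effect at 48 h minus that at 12 h (limma over all 12 arrays and 23671 probe sets). This difference passed the adjusted threshold in 76 probe sets (0.321%), 16 with a higher value at 48 h (0.0676%) and 60 with a lower one (0.253%). With the replicate block within each time the count was 271 (1.14%). It ranged from 3 to 503 when 1 array was left out.

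Genes of cholesterol synthesis had medians of opposite sign at the 2 times. The median of the 19 genes was 0.19 at 12 h and -0.31 at 48 h, where 3 of the 19 had a positive difference. The difference between times passed for HMGCS1 (0.26 at 12 h, -0.57 at 48 h, adjusted p = 0.0369, limma), IDI1 (0.22 and -0.49, 0.0441) and ACAT2 (0.18 and -0.71, 0.0362), and, chosen after its values were seen, for the fatty acid elongase ELOVL6 (0.25 and -0.99, 0.0331). Each of these 4 calls held in 3 of 12 fits that left out 1 array. The fatty acid list had medians of 0.22 and -0.23. HMGCS1 control arrays were at 11.49, 11.49 and 11.64 at 12 h and 10.59, 10.76 and 10.55 at 48 h.

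The ER chaperone list had medians of 0.26 at 12 h and 0.04 at 48 h, and the differences of HSPA5, DNAJB9 and SDF2L1 at 48 h were 0.08, 0.25 and -0.40. On the brightest probe set of HSPA5 both groups stood close together at 48 h, at 16.23, 16.24 and 16.07 with CsA against 16.12, 16.00 and 16.19. Its other, dimmer probe set also differed less at the later time, with 0.31 against 1.22. None of these 3 passed the test of the difference between times (limma, adjusted p = 0.151, 0.0998 and 0.157). The control levels of these genes were far apart between the times: SDF2L1 control arrays stood at 8.96, 8.33 and 8.67 at 12 h and 12.79, 12.44 and 13.11 at 48 h, and DNAJB9 at 9.37, 9.56 and 9.58 and then 12.33, 12.42 and 12.45. The part of these control levels in the 48 h differences was not tested.

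KLF4 had differences of 1.23 and 1.61, GDF15 of 0.88 and 0.69, TXNIP of -0.93 and -2.33 and DKK1 of 0.74 and 1.88, and the difference between times did not pass for these genes (limma, adjusted p = 0.717, 0.775, 0.322 and 0.188). The CsA arrays of TXNIP at 48 h stood at 3.02, 3.09 and 3.80, all below the log2 filter of 4, and its other probe sets gave -0.69 and -1.70 at 48 h. The mitosis list had medians of -0.22 at 12 h and -0.58 at 48 h and the replication list of -0.08 and -0.68. CDK1 had differences of -0.31 and -0.86 and KIF11 of -0.29 and -1.61, which were not past the threshold either (limma, adjusted p = 0.773 and 0.264). The replication genes MCM4 (-0.010 and -0.98) and MCM6 (0.0031 and -0.98), chosen after their values were seen, did pass (limma, adjusted p = 0.0379 and 0.0386). With the replicate block within each time these were 0.0652 and 0.0494 (limma). Their calls held in 3 and 4 of 12 fits that left out 1 array.

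**Figure D5:**
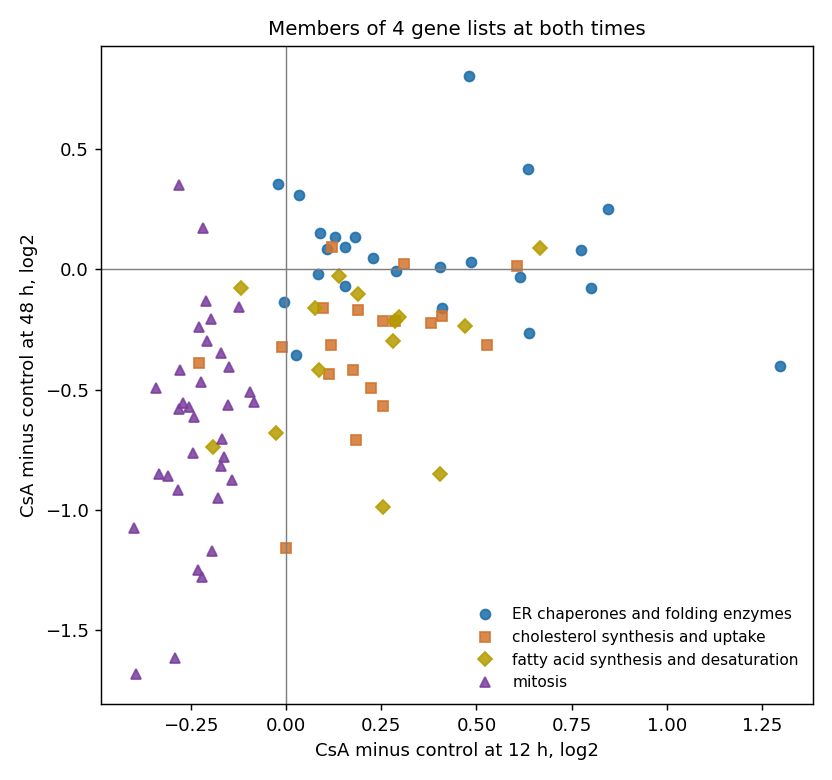
CsA minus control (log2) at 12 h on the horizontal axis and at 48 h on the vertical axis, with a point for each measured gene of 4 lists; the controls of the axes are separate arrays. Most cholesterol genes lie right of 0 and below 0, mitosis genes lie left of 0 and mostly below 0, and ER chaperones spread to the right around 0 on the vertical axis.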

How the data were processed

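The 12 arrays (Affymetrix, HK-2 cells) were deposited as 1 table of log2 values per probe set, which the authors made with GCRMA per the submitters' processing notes. No version or settings of GCRMA were stated there. GCRMA corrects background by probe sequence and normalizes across arrays, so dim values are compressed towards a floor and arrays are not independent of each other. Probe sets above log2 4 on at least 3 of the 6 arrays at 12 h were tested with limma 3.58.1 in R 4.3.3, without a block, with Benjamini-Hochberg adjustment and a threshold of 0.05. Scripts were tested on simulated data. The number of arrays limits the precision.

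Deviations from the group means correlated between CsA and control arrays of the same replicate number (r = 0.43, 0.55 and 0.38), so the numbers were taken to pair the arrays. Correlations between different numbers were negative, but subtracting the group means pushes them that way, so they add no support for the pairing. Genes were named from platform annotation (41097 of 54675 probe sets with 1 symbol). Named were up to 12 genes per direction with the largest difference, separated groups, a shared sign in the pairs and a level of at least log2 6, up to 3 members of a list with the lowest p, any member of the ER chaperone, degradation, ATF4, cholesterol, Kruppel-like and early response lists, and a few fixed genes, fewer where the text did not need them. The alternatives left out arrays and changed the filter, block, priors, weights, centring, arrays fitted and choice of probe set. The comparison, its gene lists and its members were chosen with earlier results of these data known.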

Additional observations from a re-analysis of the deposited data

Results flagged for a closer look

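Beside MCM4 and MCM6, given above, for 6 named genes the CsA effect at 48 h minus that at 12 h passed the adjusted threshold of 0.05 (limma): HMGCS1 (-0.82), IDI1 (-0.72), ACAT2 (-0.89), ELOVL6 (-1.24), CDH6 (-1.25) and PAX8 (0.99), all on the log2 scale. The call of CDH6 held in 7 of 12 fits that left out 1 array and that of each of the other 5 in 3 of 12. CDH6 differed by 0.09 at 12 h and -1.16 at 48 h on its brightest probe set, while 3 of its other 5 probe sets had a negative difference at 12 h. PAX8, a transcription factor of the renal lineage, differed by 0.10 and 1.09 on its brightest probe set. Probe sets of PAX8 with the opposite sign at 12 h gave -0.20 and -0.25.

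For 6 other named genes the groups were separated in opposite directions at 12 h and 48 h. In these genes the difference between the times did not pass the threshold. These differences were -1.23 for SLC7A11, -1.37 for INHBE, -0.60 for INSIG1, -0.47 for SC5D, -1.26 for PNPLA3 and -0.25 for EIF2AK3 (limma, adjusted p = 0.123, 0.179, 0.106, 0.0731, 0.16 and 0.304). The 6 genes were picked for this pattern after their values were seen. At 12 h alone the groups were separated upward in 6.50% of all genes and downward in 6.60%. The share of all genes with opposite separation at 12 h and 48 h was not counted, so whether 6 is many was not tested.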

How the results depend on the processing

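The count of 0 probe sets called at 12 h stood in the replicate block fit and in all settings that left out arrays or changed the filter, the choice of probe set, the priors without the block, the weights or the centring. It was 1 with all 12 arrays in the fit, 0 in that fit with the replicate block within each time, and 3 with the replicate block and trended, robust priors, a setting added after seeing the data. The replicate block alone changed no call at 12 h. The 76 calls of the difference between the times became 271 with the replicate block, 41 without the filter, 125 with a filter at log2 6, 125 with 1 probe set per gene, 154 with trended and robust priors, 1351 with array weights and 32 on median-centred arrays, and ranged from 3 to 503 when 1 array was left out; the cause was not tested.

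Of 2563 values of the 117 genes tried under alternatives, 2549 kept their direction and side of the threshold, 3 passed it (HSPA5, KLF4 and GDF15, above) and 11 changed sign. CDH6 was -0.13 as the mean of its probe sets. When 1 array was left out, CALR ranged from -0.16 to 0.41, P4HB from -0.020 to 0.16, PPIA from -0.069 to 0.0068, RCAN1 from -0.17 to 0.044 and HMOX1 from -0.070 to 0.064. Without a whole pair, P4HB was -0.00099 (replicate 3), PPIA 0.0038 (replicate 1) and HMOX1 0.016 (replicate 2). Of 608 list medians under alternatives, 97 moved by more than the spread between replicates. Values near the log2 floor of 4 (NUPR1, SPACA6, KDM7A, NAV3) are the least certain.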
